A study of Mus musculus with 9 samples.

Results

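Liver takes up glucose and fructose and turns them into pyruvate through a small set of transporters and enzymes, and 7 of their genes are described here: Slc2a2 and Gckr of glucose uptake and its first phosphorylation, Pfkl, Pfkfb1 and Pklr of glycolysis, and Khk and Tkfc of fructose breakdown. They were chosen by name, and every probe set annotated to 1 of these symbols alone was taken. This gave 10 probe sets for 6 of the 7 genes, of 34945 probe sets with 1 symbol and 18193 genes tested in all. Pfkfb1, which encodes the liver enzyme that makes and removes fructose 2,6-bisphosphate, was not analysed here.

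RNA was measured in whole liver of males aged 14 weeks and fed regular chow. The db/db group (BKS.Cg-Leprdb, 4 arrays) carries the db mutation of the leptin receptor gene in all tissues and is obese and diabetic with a fatty liver at this age, per the study's design. The control group (C57BL/KSlepr+/+, called BKS, 5 arrays) consists of littermates of the same background with the intact receptor gene. The study as a whole asks about peroxisomes and mitochondria in this fatty liver. Samples are numbered within each group, but no label states that they are separate animals, so a p-value here speaks of the spread over samples, which may be technical. In whole liver, a change in the share of a cell type and a change in RNA per cell cannot be told apart.

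In hepatocytes, glucose enters through GLUT2, the product of Slc2a2, which carries sugar in both directions, and is phosphorylated by glucokinase. The protein of Gckr binds glucokinase in the nucleus and holds it inactive, and fructose 1-phosphate releases it. Phosphofructokinase (Pfkl) commits the sugar to glycolysis, and pyruvate kinase (Pklr) completes the path to pyruvate. Ketohexokinase (Khk) phosphorylates fructose at carbon 1 and triokinase (Tkfc) phosphorylates the glyceraldehyde that is split from it, so that fructose enters below phosphofructokinase. Pklr is the textbook target of the carbohydrate response factor ChREBP (Mlxipl), which binds with its partner Mlx to a pair of E-box-like sites.

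Promoter windows of 3 genes are shown, those of the genes with the largest differences, Pklr and Tkfc, and of Khk, the only one of the 7 genes with a complete E box in its window. Each is the 250 bases before a transcript start, from RefSeq on GRCm38.p6, and all 7 genes matched the RefSeq table by symbol. A pair of E-box patterns and the TATA box were searched on both strands, and matches stand in capitals. The 17-letter pattern CACGNNNNNNNNNCGTG holds both outer parts of a carbohydrate response element, CACGTG is the E box, and TATAAA the TATA box. For Pklr, RefSeq lists 2 starts. The upstream one belongs to the red cell form, and the window shown (chr3:89136373-89136622, plus strand) lies before the downstream one, that of the liver form. The window of Khk is chr5:30921309-30921558 on the plus strand, and that of Tkfc chr19:10604259-10604508 on the minus strand. The Tkfc start used (10604258) lies inside the span of the gene, which reaches 10605482. Those of Khk (30921559) and Gckr (31297563) also lie inside their genes, which begin at 30921436 and 31297266. The upstream Pklr start (89136142) lies inside its gene too, which begins at 89136122. Any start further upstream of these genes was not searched.
Pklr: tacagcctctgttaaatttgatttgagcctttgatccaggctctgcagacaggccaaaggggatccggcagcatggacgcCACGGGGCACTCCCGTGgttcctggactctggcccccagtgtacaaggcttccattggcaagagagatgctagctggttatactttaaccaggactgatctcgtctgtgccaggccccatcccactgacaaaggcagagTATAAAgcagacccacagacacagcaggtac
Khk: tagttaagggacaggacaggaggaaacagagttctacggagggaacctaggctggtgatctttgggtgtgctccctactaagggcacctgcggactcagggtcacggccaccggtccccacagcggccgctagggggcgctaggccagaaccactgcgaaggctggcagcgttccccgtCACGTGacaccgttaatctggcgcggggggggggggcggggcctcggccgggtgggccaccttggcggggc
Tkfc: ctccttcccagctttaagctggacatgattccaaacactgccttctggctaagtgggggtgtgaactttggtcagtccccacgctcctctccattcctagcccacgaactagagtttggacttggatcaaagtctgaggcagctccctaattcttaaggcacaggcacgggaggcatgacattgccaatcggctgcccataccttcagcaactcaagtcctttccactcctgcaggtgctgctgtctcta
The Pklr window held the 17-letter pattern as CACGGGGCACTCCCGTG, 170 to 154 bases before the start, and TATAAA 31 to 26 bases before it. The window at the other Pklr start held none of the 3 patterns. Khk held CACGTG 71 to 66 bases before its start, and no pattern was found for Tkfc, Gckr, Slc2a2 or Pfkl. One of the windows of Pfkfb1 held TATAAA, 193 to 188 bases before its start. Of 32851 such windows in the table, 72 (0.219%) held the 17-letter pattern, 1978 (6.02%) CACGTG and 4063 (12.4%) TATAAA. A match is a run of letters and was not measured as a binding site, and a missing match says only that these letters are not in these 250 bases.

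The 6 measured genes lie on chromosomes 3 (Slc2a2 at chr3:28697903-28728361 and Pklr at chr3:89136122-89146815), 5 (Khk at chr5:30921436-30931248 and Gckr at chr5:31297266-31327302), 10 (Pfkl at chr10:77986947-78009807) and 19 (Tkfc at chr19:10592197-10605482). Pfkfb1, whose RNA was not analysed, lies on chromosome X (chrX:150587445-150643878). Khk and Gckr are 366 kb apart.

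Of the 6 measured genes, 5 were higher in db/db liver and none was lower. Pklr and Tkfc rose 2.79-fold and 2.72-fold. Gckr rose 1.94-fold, Khk 1.80-fold and Slc2a2 1.71-fold, and Pfkl, at 1.12-fold, did not pass the test. Among all genes tested, 2.89% passed in the same direction (limma, Benjamini-Hochberg adjusted p under 0.05 over 18193 genes). For each of these 5 genes all 4 db/db arrays lay above all 5 BKS arrays, which held for 4.73% of all genes. With the 18S split as a block the same 5 passed, beside 4.11% of all genes. Of the 10 probe sets 7 passed as higher when all probe sets were tested, against 1.97% of all 34945. The genes were chosen with earlier results of these data known, so these counts are a description and not independent support. Levels below are quantile-normalized log2(signal + 16) values of the brightest probe set of a gene, and fold changes are on that scale.

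**Figure D1:**
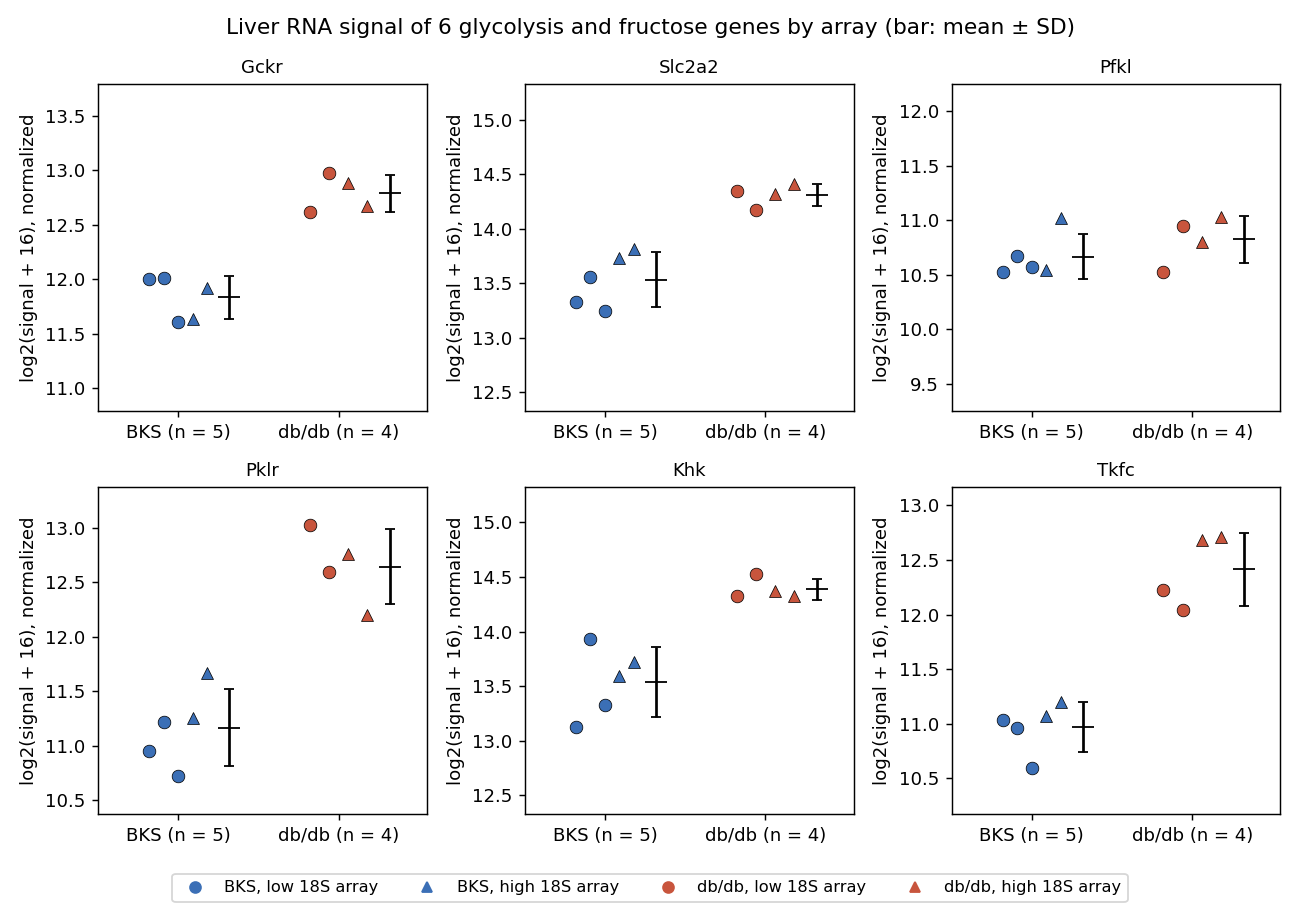
Normalized log2(signal + 16) of the 6 measured genes (vertical axes, each spanning 3 log2 units) on 5 BKS and 4 db/db arrays. Circles mark arrays with low and triangles arrays with high 18S ribosomal RNA signal, and the bars give mean ± SD. Every db/db array lies above every BKS array for Gckr, Slc2a2, Pklr, Khk and Tkfc, and the groups overlap for Pfkl.

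The arrays differed in a technical property that both genotypes share. Control probe sets for 18S ribosomal RNA were bright on 4 arrays (BKS 4, BKS 5, db/db 3 and db/db 4, with 1873 to 19771 at the 3' control) and dim on the other 5 (22.2 to 43.5). The labels give no batch, and this split is used as a block and to give values within each set. The ratio of 3' to 5' signal for beta-actin, a sign of RNA integrity, ran from 1.68 to 5.93 in BKS and from 1.62 to 3.98 in db/db. By 18S set it was 3.18 to 5.93 on the 4 bright arrays. On the dim arrays it was 1.62 to 1.80, except for BKS 1 at 3.32, so this ratio largely goes with the 18S split. The median array signal was 67.4 to 110.8. Precision is limited by there being 9 arrays. The tissue matched its label: albumin (Alb) stood at 15.47 and 15.50 in BKS and db/db, 1 of 8 measured hepatocyte markers passed the test (Asgr1, higher), and none of 9 macrophage, 7 endothelial, 7 stellate and 4 bile duct markers did (limma). Once the 18S split entered the fit as a block, 5 of them passed (limma), beside 747 genes higher and 751 lower of all 18193. The macrophage genes Adgre1 (-0.62, adjusted p = 0.0364) and Cd5l (-0.87, 0.0249) and the bile duct gene Sox9 (-1.59, 0.0268) were lower. Pecam1 of endothelium (1.64, 0.0470) and Lrat of stellate cells (0.98, 0.0398) were higher. Without the block, the 3 probe sets of Sox9 ran from -1.51 to 1.06 and the 2 of Lrat from 0.13 to 0.94. The median log2 fold change of the macrophage markers was -0.55, with 7 of 9 below 0, and their summed signal ran from 5922 to 16563 in BKS and from 3487 to 9307 in db/db. The part of these cells in the results was not tested.

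Slc2a2, the glucose transporter of the hepatocyte membrane, stood at 13.33, 13.55, 13.24, 13.73 and 13.82 in BKS 1 to 5 and at 14.35, 14.17, 14.32 and 14.41 in db/db 1 to 4. The lowest db/db array lay 0.36 above the highest BKS array, so the groups were apart but near. The means were 13.53 ± 0.25 (SD, n = 5) and 14.31 ± 0.10 (SD, n = 4). The difference was 0.78 on the log2 scale (SE 0.13, limma adjusted p = 0.00277, 95% confidence interval of the fold 1.41 to 2.08). Its highest BKS values, on BKS 4 and BKS 5, came from the high 18S set, and the difference was 0.89 within the low 18S set and 0.59 within the other. The call of Slc2a2 ended under median centring (0.82, adjusted p = 0.219) and with the deposited scaling alone (0.75, adjusted p = 0.0733).

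Gckr, the glucokinase regulator, stood at 12.00, 12.01, 11.61, 11.64 and 11.92 in BKS 1 to 5. In db/db 1 to 4 it stood at 12.62, 12.98, 12.89 and 12.67. The gap between the groups, 0.61, was wider than the whole range within either group (0.40 in BKS and 0.36 in db/db). The means were 11.83 ± 0.20 (SD, n = 5) and 12.79 ± 0.17 (SD, n = 4), a difference of 0.95 (SE 0.13, limma adjusted p = 0.000604, fold interval 1.60 to 2.34). Within the low 18S set the difference was 0.92, within the other 1.00. Slc2a9, a transporter of urate and hexoses, was the only other measured gene in the list of glucose uptake and phosphorylation, and it rose 1.82-fold (adjusted p = 0.0200). This Slc2a9 call ended under median centring (adjusted p = 0.0579), without the intensity trend (adjusted p = 0.0501) and without db/db 2 or db/db 4 (adjusted p reaching 0.0655), and its other probe set had the opposite sign, -0.32.

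Pfkl, the liver subunit of phosphofructokinase, was the one measured gene of the 7 that did not pass. Its brightest probe set (1439148_a_at) stood at 10.52, 10.67, 10.57, 10.55 and 11.02 in BKS 1 to 5 and at 10.53, 10.94, 10.80 and 11.02 in db/db 1 to 4, so the groups overlapped over nearly their whole range. The difference was 0.16 (SE 0.15, limma adjusted p = 0.649), with a fold interval of 0.90 to 1.39. A dimmer probe set of Pfkl, 1450269_a_at, gave another picture. It stood at 9.38, 9.67, 9.63, 9.42 and 9.59 in BKS 1 to 5 and at 9.86, 10.20, 9.97 and 9.99 in db/db 1 to 4, with no overlap. Its difference of 0.47 (SE 0.14) did not pass over all probe sets (limma adjusted p = 0.111, and 0.0583 with the 18S split as a block). The dimmest, 1453541_at, ranged from 6.55 to 7.18 in BKS and from 6.57 to 6.88 in db/db.

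Pklr, pyruvate kinase of liver and red cells, stood at 10.96, 11.22, 10.73, 11.26 and 11.67 in BKS 1 to 5 and at 13.02, 12.59, 12.76 and 12.20 in db/db 1 to 4. The lowest db/db array and the highest BKS array, 0.53 apart, were both high 18S arrays. The means were 11.17 ± 0.35 (SD, n = 5) and 12.64 ± 0.35 (SD, n = 4). The difference was 1.48 (SE 0.19, limma adjusted p = 0.000545, fold interval 2.08 to 3.72), and 0.792% of all genes had a larger log2 fold change. Within the low 18S arrays the difference was 1.84 and within the high 18S arrays 1.02, the widest gap between the sets among the 6 genes. In BKS the high 18S arrays averaged 0.49 above the low ones, and in db/db 0.33 below them (log2 difference -0.33). Whether the sets differ in the effect was not tested. With the 18S split as a block the difference was 1.47 (adjusted p = 0.000359).

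The other Pklr probe sets are dimmer and showed larger differences. Probe set 1421258_a_at stood at 8.60, 10.05, 9.57, 9.64 and 10.93 in BKS 1 to 5 and at 12.20, 11.70, 12.04 and 11.21 in db/db 1 to 4, a difference of 2.03 (SE 0.36, limma adjusted p = 0.00555 over all probe sets). Probe set 1421259_at stood at 8.36, 9.63, 8.93, 8.61 and 9.42 in BKS and at 11.47, 11.03, 10.73 and 9.95 in db/db, a difference of 1.81 (SE 0.31, adjusted p = 0.00467). All 3 probe sets of Pklr thus placed every db/db array above every BKS array, with db/db 1 the highest on each. Their confidence intervals overlap, and whether they differ was not tested. Red cells also express Pklr. Of 3 measured red cell precursor markers, Alas2, the erythroid enzyme of heme synthesis, fell by 1.20 in db/db (limma adjusted p = 0.0114). The others, Hba-a1 (0.07) and Epor (0.25), were above 0 and did not pass. Their summed signal was 2205 to 4270 in BKS and 995 to 2313 in db/db. Alas2 was by far the brightest in BKS (11.47, against 6.09 for Hba-a1 and 7.43 for Epor), so the sum mostly follows this gene. The part of red cells in the Pklr difference was not tested.

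**Figure D2:**
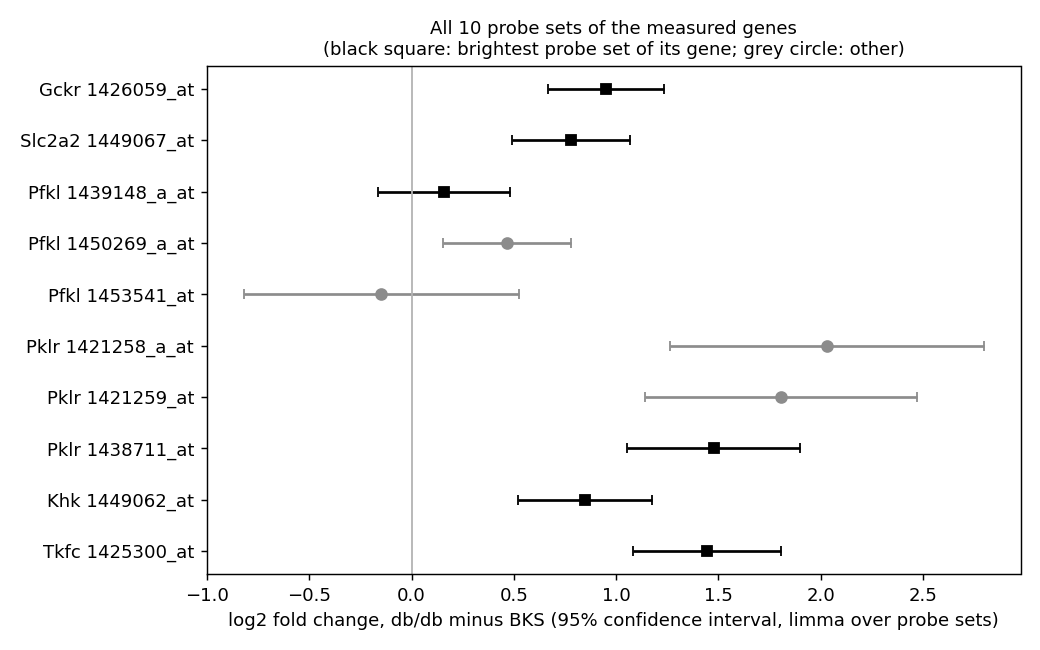
Log2 fold change, db/db minus BKS, of the 10 probe sets (horizontal axis) with 95% confidence intervals from limma over all probe sets. Black squares are the brightest probe set of a gene and grey circles the others. The 3 Pklr probe sets lie between 1.48 and 2.03, and the 3 of Pfkl between -0.15 and 0.47.

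Khk, the enzyme that starts fructose breakdown, stood at 13.13, 13.93, 13.33, 13.59 and 13.72 in BKS 1 to 5. In db/db 1 to 4 it stood at 14.33, 14.53, 14.37 and 14.32. The BKS arrays were spread over 0.80 and the db/db arrays over 0.20, and the gap between the groups was 0.39. The means were 13.54 ± 0.32 (SD, n = 5) and 14.39 ± 0.10 (SD, n = 4), a difference of 0.85 (SE 0.15, limma adjusted p = 0.00412, fold interval 1.44 to 2.25). Within the low 18S set the difference was 0.97, within the other 0.69. The call of Khk ended under median centring (0.90, adjusted p = 0.131) and, narrowly, without the intensity trend (adjusted p = 0.0509). The annotation used here does not say which splice forms of Khk the probe set measures.

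Tkfc, triokinase, which brings the glyceraldehyde of fructose into glycolysis, stood at 11.03, 10.96, 10.59, 11.07 and 11.20 in BKS 1 to 5. In db/db 1 to 4 it stood at 12.23, 12.04, 12.68 and 12.71. The gap between the groups was 0.84, the widest among the 6 genes. The means were 10.97 ± 0.23 (SD, n = 5) and 12.42 ± 0.33 (SD, n = 4), a difference of 1.44 (SE 0.16, limma adjusted p = 0.000183, fold interval 2.13 to 3.48). Within the low 18S set the difference was 1.27, within the other 1.56, and in db/db the high 18S arrays averaged 0.56 above the low ones. With the block the adjusted p was 1.00e-05.

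**Figure D3:**
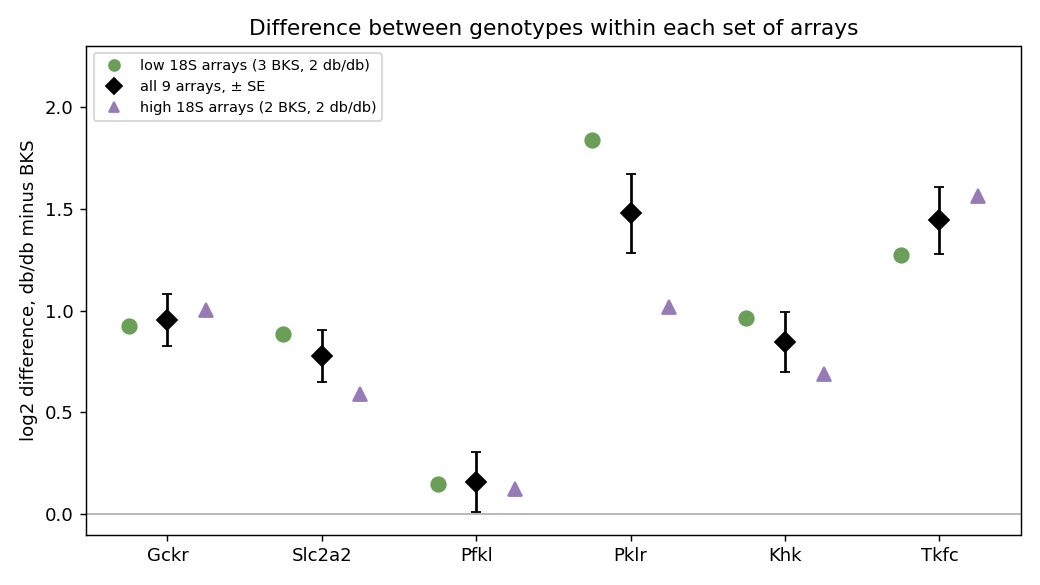
Log2 difference, db/db minus BKS (vertical axis), for the 6 genes within the 5 low 18S arrays (circles), over all 9 arrays with its SE (diamonds) and within the 4 high 18S arrays (triangles). Every difference is above 0, from 0.13 for Pfkl to 1.84 for Pklr.

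The size of the difference was compared between the genes within each array. For each of the 15 pairs the log2 value of one gene minus that of the other was set between the groups with a two-sided exact permutation test over the arrays (126 splits, smallest possible p = 0.00794), with Benjamini-Hochberg adjustment over the 15 pairs. With its brightest probe set, the difference of Pfkl was smaller than that of each of the other 5 genes, by 1.32 against Pklr (SE 0.27, exact p = 0.00794, adjusted p = 0.0298), 1.29 against Tkfc, 0.79 against Gckr, 0.69 against Khk and 0.62 against Slc2a2 (exact permutation, adjusted p up to 0.0340). With the Pfkl probe set whose groups did not overlap, an alternative chosen after seeing the data, the gaps to Khk and Slc2a2 were 0.38 and 0.31 and did not pass (exact permutation, adjusted p = 0.0510 and 0.162), while those to Pklr, Tkfc and Gckr passed at 1.01, 0.98 and 0.49 (exact permutation, adjusted p = 0.0476 for each). Pklr and Tkfc rose more than Slc2a2, by 0.70 and 0.67 (exact permutation, adjusted p = 0.0340 and 0.0298), and Pklr more than Khk, by 0.63 (exact permutation, adjusted p = 0.0446). The comparison of Tkfc with Khk, along the fructose branch itself, did not pass (0.60, SE 0.24, exact adjusted p = 0.0794), nor did those of Tkfc and Pklr with Gckr (0.49 and 0.52, exact adjusted p = 0.0952 and 0.108). Pklr and Tkfc differed by 0.03 (SE 0.27), and Gckr, Khk and Slc2a2 by 0.07 to 0.17 among themselves, none of which passed (exact adjusted p from 0.486 to 0.929). Since a probe set can compress its own range, these are differences between probe sets.

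The rest of the pathway was read from lists of genes chosen by name. Of 49 further genes measured of 58 listed, 7 rose and 1 fell (5 and 0 under median centring), against 2.89% and 2.6% of all genes, and the median log2 fold change was 0.29, beside -0.0022 over all genes and 0.90 over the 6 genes above. The lists follow textbook knowledge but were chosen with earlier results of these data known, so these counts are a description and not independent support. Of the 7 that rose, Txnip, G6pc and Rgs16 stand only in the list of the carbohydrate response factor. That list was set up with the rises of Pklr and Tkfc known. In the list of lower glycolysis, with 4 measured genes, Pgk1, a phosphoglycerate kinase, rose besides Pklr, by 1.30-fold (adjusted p = 0.0489). That call survived the removal of db/db 4 alone and ended without any 1 of the other 8 arrays (limma adjusted p up to 0.128). It also ended under median centring (limma adjusted p = 0.420) and with the mean of the Pgk1 probe sets (0.19, limma adjusted p = 0.456). The 3 probe sets of Pgk1 ran from -0.08 to 0.38, and none was called when all probe sets were tested. Pgam1, the mutase that follows, was at 0.53 (SE 0.15, adjusted p = 0.0689). All 4 db/db arrays lay above all BKS arrays for Pgam1, and it passed with the 18S block (0.48, adjusted p = 0.00619) and with the replicate block (0.60, adjusted p = 0.0131). Ldha, lactate dehydrogenase A, was at 0.13. Tpi1, the triose phosphate isomerase, was at 0.31 (adjusted p = 0.163). None of the 2 measured genes of upper glycolysis, Pfkl and Tpi1, passed.

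In the fructose and polyol list Khk and Tkfc were the 2 of 6 measured genes that passed. Slc2a5, the fructose transporter GLUT5, was at 8.43 ± 0.57 in BKS (SD, n = 5) and 8.72 ± 0.31 in db/db (SD, n = 4), with a difference of 0.29 (adjusted p = 0.681). Slc2a8, a further hexose transporter, was at -0.17. Glyctk, which phosphorylates glycerate, was at 0.59 with a wide error (SE 0.23, adjusted p = 0.187), and Aldh2, an aldehyde dehydrogenase, was at 0.05. Of 20 genes whose products serve the same steps mainly in other tissues, 1 rose and none fell, against 2.89% and 2.6% of all genes. The 1 that rose was Gpd1l, a relative of glycerol 3-phosphate dehydrogenase (1.53-fold, limma adjusted p = 0.0139). The other probe set of Gpd1l had a log2 fold change of 1.27, and with it the call ended (adjusted p = 0.113), as it did without the intensity trend (adjusted p = 0.0831). The hexokinases of other tissues stood at 0.37 (Hk1), -0.38 (Hk2) and -0.03 (Hk3) in log2 fold change, and none passed (adjusted p from 0.591 to 0.983). Pkm, the pyruvate kinase of other tissues, was at 0.56 (SE 0.29, adjusted p = 0.364).

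Where triose phosphates leave for glycerol, Gpd1, the cytosolic glycerol 3-phosphate dehydrogenase, rose 1.97-fold (adjusted p = 0.00277), the 1 of 5 measured genes that passed in its list. Its 4 probe sets ran from -0.35 to 1.25, and 1 of them was called. With the mean of the 4 the call of Gpd1 ended (0.63, adjusted p = 0.111). In the pentose phosphate list 1 of 7 measured genes passed: H6pd, which starts the same branch inside the endoplasmic reticulum, had a log2 fold change of -0.72 (SE 0.09, limma adjusted p = 0.000405) and so fell. Beside the 1 call in each of these lists, 2.89% of all genes passed as higher and 2.6% as lower. This H6pd call ended under median centring (-0.63, limma adjusted p = 0.193). Most of this list went the other way, with 5 of 7 genes above 0 and a median of 0.30. Tkt was at 0.39 (limma adjusted p = 0.188) and Pgd at 0.43 (limma adjusted p = 0.227). The 3 probe sets of Tkt ran from 0.39 to 0.97 and the 4 of Pgd from 0.36 to 0.78, and 1 of each was called. Tkt also passed with the mean of its probe sets and without db/db 2.

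Of 11 listed genes of the carbohydrate response factor and its targets, 6 rose and none fell, against 2.89% and 2.6% of all genes. Their median was 1.04, with Pklr and Tkfc included. Pklr, Tkfc and Gpd1 are 3 of the 6 and were described above. The list was set up with the rises of Pklr and Tkfc known. Txnip, which binds thioredoxin and limits glucose uptake, rose 2.24-fold (SE 0.20 on the log2 scale, adjusted p = 0.00327), and its other probe set stood at a log2 fold change of 2.79 (adjusted p = 0.0233). Rgs16, a regulator of G protein signalling, rose from 6.84 ± 1.00 (SD, n = 5) to 10.96 ± 1.49 (SD, n = 4), a log2 difference of 4.12 (adjusted p = 0.00148), although its signal varied widely within both groups. The size depends on the pseudocount, with 4.36 at 1 and 3.61 at 64. Its 3 probe sets ran from 4.12 to 5.14 in log2 fold change. G6pc, glucose 6-phosphatase, which frees glucose and so runs against glycolysis, rose 2.61-fold (adjusted p = 0.00884, and 0.0628 without the intensity trend). Mlxipl, the factor itself, did not pass. It stood at 12.30 ± 0.37 in BKS (SD, n = 5) and 12.09 ± 0.09 in db/db (SD, n = 4), a difference of -0.21 (SE 0.17, adjusted p = 0.591), and Mlx, its partner, was at -0.35 (adjusted p = 0.425). The annotation used here does not say which isoforms of Mlxipl the probe set measures. Arrdc4, a relative of Txnip, was at 0.83 (adjusted p = 0.0660), and passed with the 18S block (0.81, adjusted p = 0.0484), with the mean of its probe sets (1.12, adjusted p = 0.0153) and among the brighter genes alone (adjusted p = 0.0281). The Pklr window was the only one among 9 genes of this list with a window that held the 17-letter pattern.

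**Figure D4:**
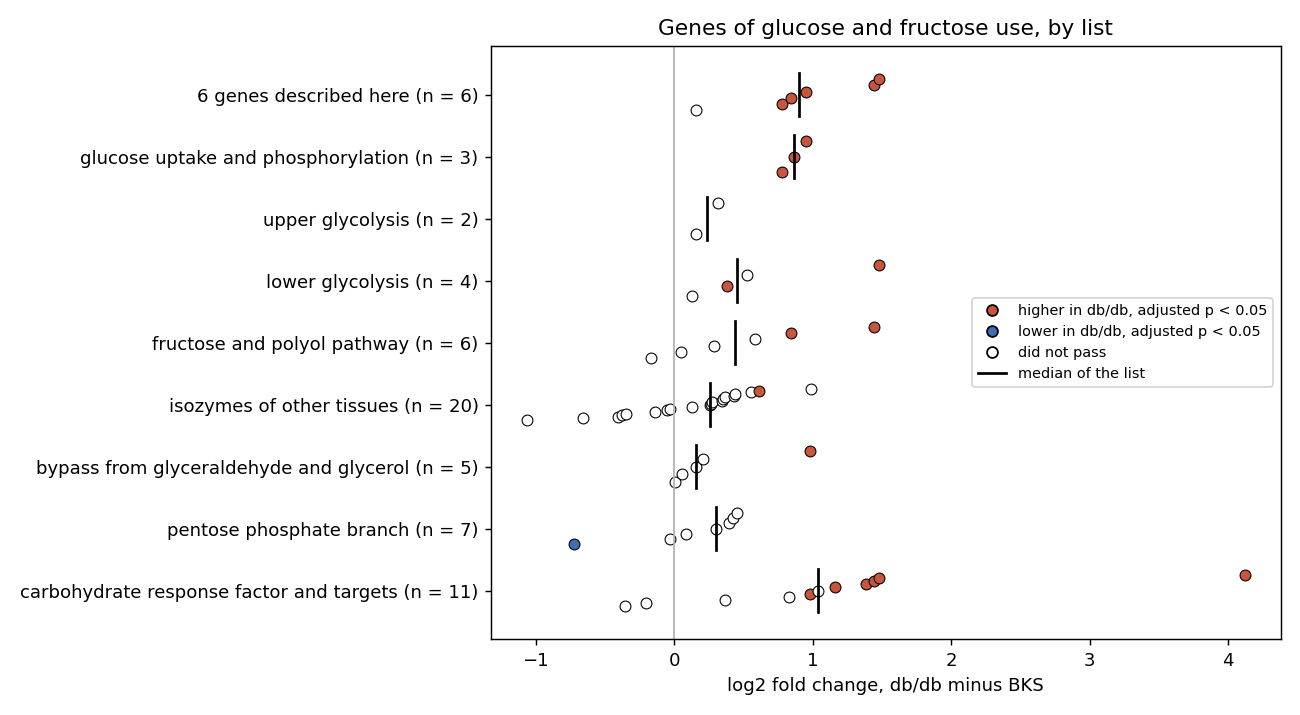
Log2 fold change, db/db minus BKS (horizontal axis), of every measured gene of each list (points, a gene can stand in several lists), filled where limma's adjusted p was under 0.05, with the list's median as a bar. The 6 genes described here have a median of 0.90, and the list of the carbohydrate response factor and its targets reaches 4.12 with Rgs16.

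For each of the 5 genes that rose, the genes nearest in pattern were found by the root mean square distance between log2 values centred on the gene's mean over the 9 arrays, a description that favours genes with a similar size of change. The nearest to Pklr were Gcdh, glutaryl-CoA dehydrogenase (distance 0.22), Gstt3 (0.24) and Slc25a10, the mitochondrial dicarboxylate carrier (0.25). Those nearest to Tkfc were Rtn4 (0.17), Cbr1, a carbonyl reductase (0.21), and 1810055G02Rik (0.21). Gckr lay nearest to Gstm4 (0.12), Slc37a4, the glucose 6-phosphate transporter of the endoplasmic reticulum (0.12), and Bche (0.12). Slc2a2 lay nearest to Pcca, a propionyl-CoA carboxylase subunit (0.09), Echdc3 (0.10) and Ilvbl (0.11). Khk lay nearest to Mvd of cholesterol synthesis (0.11), 4931408D14Rik (0.12) and Gstk1, a glutathione transferase (0.13). All 15 of these genes passed the test as higher, which the likeness to a gene that rose makes likely in itself.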

How the data were processed

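Biotin-labelled copies of liver RNA (8 µg, from 100 mg aliquots) were hybridised to Affymetrix arrays, per the labels' protocols. The deposited values are linear intensities that the authors had scaled, since a mean trimmed by 2% at both ends came to 500.003 to 500.005 on each of 9 arrays. Their software and background correction are not stated by any source used here, and without detection calls no probe set could be called above background.

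Values were transformed as log2(value + 16). Array medians spanned 0.60, above a limit of 0.25, so the arrays were quantile normalized over all 45101 probe sets (limma 3.58.1, R 4.3.3). Probe sets with several symbols (932), without a listed symbol (9160) or for controls (64) were not tested. Each gene was represented by its probe set of highest mean. The test was limma's moderated fit (lmFit, then eBayes with trend, two-sided) of genotype alone, called at an adjusted p under 0.05 (Benjamini-Hochberg, all genes). On simulated data with independent noise only the moderated fit was tested, not the normalization, probe set choice, blocks or permutation test.

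Named genes were the 7 listed, Mlxipl, Txnip, Slc2a5 and Hk1 to Hk3, up to 3 called genes per direction with the smallest adjusted p from each list, and the 3 nearest in pattern to each called gene; other genes named were chosen after their values were seen. The genes and lists, and the division of arrays at the widest step in 18S signal, were chosen with earlier results of these data known. Alternatives changed the scaling, pseudocount, filter, probe set rule, trend, blocks and arrays.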

Additional observations from a re-analysis of the deposited data

Results flagged for a closer look

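A sample stood far from the others of its group in 2 of 46 groups examined over the 10 probe sets and the named pathway genes. Chance flags about 1 in 20 such groups. Hk3, a hexokinase of blood cells, stood at 6.02 on BKS 5, with the next lowest BKS array at 7.48. Pgk1 stood at 13.49 on BKS 4, with the next lowest BKS array at 13.61. None of the 10 probe sets of the genes described stood apart in this way on any array.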

How the results depend on the processing

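Of the 6 measured genes, 5 passed with each of the 9 arrays left out in turn (lowest and highest count 5), with pseudocounts of 1 and 64, with only the brighter genes, with both other probe set rules, with the 18S split as a block and with the replicate block. Median centring left 3 (Gckr, Pklr and Tkfc), the deposited scaling alone 4, without Slc2a2, and eBayes without a trend 4, without Khk. Calls over all genes fell as well, from 526 higher and 473 lower to 323 and 212 under median centring. They were 468 and 450 with the deposited scaling alone, and 254 and 212 without a trend. The cause was not tested. All 6 differences stayed above 0 in every one of these settings, and that of Pklr ran from 1.36 to 1.62 over the arrays left out. The 7 called probe sets of 10 stayed 7 without each array and with both blocks. The other scalings, the pseudocounts and the fit without a trend were not run for this count. Among the 49 pathway genes 8 passed, 7 to 8 without each array, 5 under median centring, 4 with the probe set of largest variance and 4 without a trend. With the probe set of largest variance, 370 of all genes were called higher and 260 lower. With the 18S block 10 passed (adding Pgam1 and Arrdc4), and with only the brighter genes 10 (adding Slc2a4 and Arrdc4). Calls over all genes rose as well, from 526 higher and 473 lower of 18193 to 747 and 751 with the 18S block. With only the brighter genes they were 607 and 606 of 9096. Fewer pathway genes were tested there, Hk1 to Hk3 being among those left out. Of the 15 gene pairs 8 differed, and 5 with the other Pfkl probe set, a setting added after seeing the data, where Pklr against Khk also missed the threshold (adjusted p = 0.0510). The replicate block, with the number in the labels as the pairing, left 5 genes, 7 probe sets and 8 pathway genes. Equal numbers correlated between -0.07 and 0.17 in their deviations from the group means, and 4 of 8 samples correlated best with their own number, so the numbers were not taken as pairs. Signal over background could not be judged, and the probe set of Pfkl picked decides whether its groups overlap.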

Other observations

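The spread within a genotype ran either way between the groups. Khk had an SD of 0.32 over the BKS arrays and 0.10 over the db/db arrays, and Slc2a2 0.25 and 0.10. For Tkfc the order was the other way, 0.23 and 0.33. Whether these spreads differ was not tested. The lowest BKS array was BKS 3 for Gckr, Slc2a2, Pklr and Tkfc and BKS 1 for Khk, and the highest was BKS 5 for Slc2a2, Pfkl, Pklr and Tkfc and BKS 2 for Gckr and Khk.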
